A study of Rattus norvegicus with 6 samples.

Results

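Mast cells are tissue-resident leukocytes that store proteases and histamine in granules and release them when IgE bound to their surface is cross-linked by antigen. Here, 10 genes that serve as standard mast cell markers were followed in tumors of rats given digitoxin or vehicle. They are 6 granule proteases (Cpa3, Tpsab1, Tpsb2, Cma1, Mcpt1 and Mcpt2), 2 chains of the IgE receptor (Fcer1a and Ms4a2), the growth factor receptor Kit and the histamine-forming enzyme Hdc. The genes were picked by symbol, not by their values. All 10 were found, each on 1 of the 17557 rows of the FPKM table (fragments scaled to transcript length and to the mapped fragments of the library).

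The rats were Lobund-Wistar animals, 2 months old when PAIII cells, a transplantable and castration-resistant rat prostate cancer line, were placed under the skin of the flank. Digitoxin, a cardiac glycoside that inhibits the sodium pump, was given by daily injection (0.03 mg/kg) beginning on day 10, and the tumors of both groups were harvested on day 40. Rats A1, A6 and A12 carried the digitoxin label and rats B5, B9 and B14 the vehicle label, so n = 3 in each group, with 1 library per rat made from pooled micropunches of tumor regions judged viable. Earlier work on these files raised a doubt about whether A1 and B9 carry the right labels. This was not tested here, so every direction given for digitoxin holds for the libraries as labelled. Treated rats were drawn from those with low serum IL-6 and CINC-1 and controls from those with high levels, so the drug and the serum level cannot be told apart in this comparison.

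In the rat, the chymase Mcpt2 is known for mast cells of mucosal surfaces, while Mcpt1, Cma1, the tryptases and the carboxypeptidase Cpa3 are known for mast cells of connective tissue such as the skin and the walls of airways and vessels. Kit and its ligand Kitlg keep mast cells alive, but Kit is also made by other cells, including melanocytes, pacemaker cells of the gut, blood progenitors and some tumors. The transcription factors Gata2 and Mitf act on many of these genes.

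The 6 libraries were not alike, and 2 of them, A12 and B14, 1 in each group, stood apart from the rest. Sftpc, the surfactant protein of lung alveolar cells, ran from 19188 to 63514 FPKM in A1, A6, B5 and B9, while A12 had 0.229 FPKM and B14 an entry of 0. The summed FPKM of 15 lung and airway genes was 44.5 in A12 and 66.0 in B14, with 6 of the 15 listed at 0 in each, against 49186 to 216719 in the other 4 libraries. Krt8, a keratin of simple epithelia, ran from 398 to 2095 FPKM and Epcam from 208 to 525 FPKM, so markers of carcinoma or epithelium were present in every library. The number of reads behind each FPKM is unknown, so low FPKM have no known precision and an entry of 0 is given only as listed at 0.

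Mast cell transcripts were present in A1, A6, B5 and B9 and close to 0 in A12 and B14. Of the 10 genes, 9 were at 1 FPKM or more in each of A1, A6 and B9, all 10 in B5, and only Kit in A12 and in B14. The summed FPKM of the 9 genes other than Kit was 48.3 in A1, 72.7 in A6, 239 in B5 and 76.4 in B9, but 2.58 in A12 and 1.46 in B14. B5 held the highest value for 8 of the 10 genes. In bulk tissue, fewer mast cells and less RNA per mast cell cannot be told apart.

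**Figure D1:**
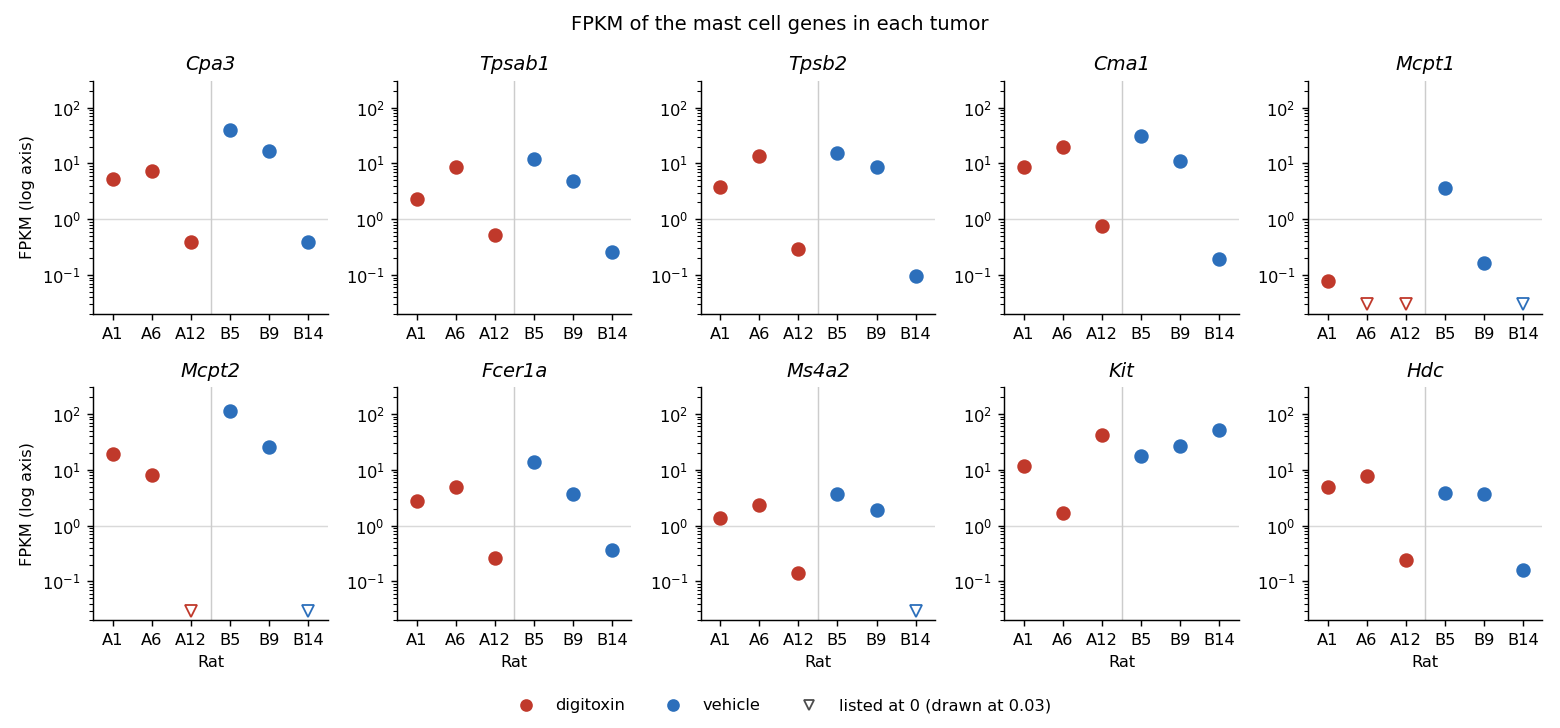
FPKM of the 10 genes (log axis) in each of the 6 tumors, with digitoxin-treated rats in red to the left and vehicle rats in blue to the right of the grey line. Points are single libraries and open triangles are entries listed at 0. A12 and B14 lie below the other 4 tumors for every gene except Kit, which is highest there, and Mcpt1, which was also listed at 0 in A6.

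Cpa3 encodes the mast cell carboxypeptidase A, one of the most selective markers of the lineage. It lies on chromosome 2 from 124745510 to 124777636, in the coordinates of the deposited table, whose genome build is not given in the sources used here. It measured 5.31 FPKM in A1, 7.22 in A6 and 0.385 in A12 with digitoxin, and with vehicle 40.4, 16.6 and 0.395 FPKM in B5, B9 and B14. The 2 highest values were those of vehicle rats, but B14 was as low as A12, so the groups overlapped. The lowest of A1, A6, B5 and B9 was still 13.4 times the higher of A12 and B14.

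The tryptases Tpsab1 and Tpsb2 are trypsin-like proteases held in the granule on heparin. They are neighbours on chromosome 10, from 14519180 to 14521596 and from 14539017 to 14540810, with 17420 bases between them. Tpsab1 was at 2.28, 8.56 and 0.516 FPKM in the treated tumors A1, A6 and A12 and at 11.9, 4.77 and 0.254 FPKM in the controls B5, B9 and B14. Tpsb2 was at 3.74, 13.5 and 0.287 FPKM in the treated tumors A1, A6 and A12 and at 15.5, 8.48 and 0.0942 FPKM in the controls B5, B9 and B14. Both genes gave the same order of tumors, with B5 first, A6 second and B14 last. The ratio of Tpsb2 to Tpsab1 was between 1.31 and 1.78 in A1, A6, B5 and B9. As they are paralogs, reads may have been split between them, and their separate levels are less certain than their sum.

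Cma1, Mcpt1 and Mcpt2 are chymases, serine proteases that cut after aromatic residues, and they lie within a span of 431434 bases on chromosome 15. Cma1 (from 38490970 to 38493753) was at 8.68, 20.1 and 0.745 FPKM in the treated tumors A1, A6 and A12 and at 30.6, 10.9 and 0.197 FPKM in the controls B5, B9 and B14. It had the same order of tumors as the tryptases, with A6 above B9 and A1. Mcpt2 (from 38920068 to 38922403) was at 19.2 FPKM in A1, 8.10 in A6, 116 in B5 and 26.2 in B9, and listed at 0 in A12 and B14. Mcpt2 reached the highest level of any of the 10 genes, in B5, where 94.0% of all rows had a lower FPKM. Its order differed from that of Cma1, since A6 was the lowest of the 4 libraries in which Mcpt2 was above 0.

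Mcpt1 (from 38754323 to 38756878) was at 3.63 FPKM in B5, 0.166 in B9 and 0.0792 in A1, and listed at 0 in A6, A12 and B14. B5 alone was above 1 FPKM. Its mean of 0.645 FPKM was under the minimum of 1 FPKM set for the test, and it was the only one of the 10 genes left out. Chymase genes of this cluster resemble each other, so that small amounts of Mcpt1 could be reads of a neighbour.

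Fcer1a and Ms4a2 encode the alpha chain, which binds IgE, and the beta chain, which amplifies the signal. Fcer1a was at 2.77, 4.97 and 0.264 FPKM in the treated tumors A1, A6 and A12 and at 13.8, 3.73 and 0.364 FPKM in the controls B5, B9 and B14. Ms4a2 was at 1.35, 2.38 and 0.143 FPKM in A1, A6 and A12 and at 3.68 and 1.88 FPKM in B5 and B9, and it was listed at 0 in B14. Both chains had B5 highest and A6 second, as had the tryptases and Cma1 but not Cpa3, Mcpt1 or Mcpt2. Fcer1a stood at 1.98 to 2.09 times Ms4a2 in A1, A6 and B9 and at 3.74 times in B5.

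Hdc, histidine decarboxylase, makes histamine in mast cells and basophils and can be induced in neutrophils. It was at 4.89, 7.86 and 0.241 FPKM in the treated tumors A1, A6 and A12 and at 3.82, 3.71 and 0.160 FPKM in the controls B5, B9 and B14. Hdc was near 0 in A12 and B14 like the proteases, but it was the one gene whose highest values were those of digitoxin-treated rats, A6 and A1. B5, which led for 8 genes, was at 1.03 times B9 for Hdc, against 2.43 times for Cpa3 and 4.42 times for Mcpt2. S100a8, an abundant neutrophil mRNA, was at 34402 FPKM in A6, 12244 in A1, 16249 in B5, 5450 in B9, 1308 in B14 and 576 in A12. Of the 9 tested neutrophil genes, 4 were highest in A6 (S100a8, S100a9, Camp and Ngp) and 5 in another tumor, such as Cxcr2, at 7.95 FPKM in A6 against 36.9 in B5, and Csf3r, at 7.44 FPKM in A6 against 29.2 in B9. The part of neutrophils in the Hdc values was not tested.

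Kit went the other way. It was at 11.9, 1.67 and 41.6 FPKM in the treated tumors A1, A6 and A12 and at 17.4, 27.0 and 51.9 FPKM in the controls B5, B9 and B14, a range of 31.1 times. The 2 libraries nearly without mast cell proteases, A12 and B14, held the most Kit, and A6, second for the tryptases, Cma1 and the IgE receptor chains, held the least. Kit stood at 108 times Cpa3 in A12 and at 131 times in B14, but at 0.231 times in A6 and 0.431 times in B5. In these tumors Kit did not follow the other 9 genes, and counts over the tested genes are also given without it. Of the melanocyte genes, Tyr was at most 0.0165 FPKM and Pmel at most 0.795 FPKM in any tumor, and Mlana was listed at 0 in all 6. Ano1, known from pacemaker cells of the gut and from several carcinomas, was at 35.4 FPKM in A12 and 39.8 in B14 and at 12.04 to 20.6 FPKM in the other 4. Of 7 genes of epithelium and carcinoma, 4 were higher in both A12 and B14 than in each of the other 4, beside 30.1% of tested rows. They were Krt8, Mki67, Top2a and Krt5, the last under 1 FPKM in every tumor, and 0 of the 7 were lower in both. The part of these cells in the Kit values was not tested.

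The pattern of A12 and B14 was common in the whole table. Of the 9 tested genes, 8 were lower in both A12 and B14 than in each of the other 4 libraries, while 29.3% of the 10749 tested rows were. Kit was higher in both, as were 30.1% of the tested rows.

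The promoters of these genes differed in base composition. RefSeq sequences (GRCr8 build, 250 bases before to 50 after the gene start) were matched by symbol for 8 of the 10 genes, all but Mcpt2 and Ms4a2. They were searched on both strands for 4 hexamers whose letters GATA factors are known to bind, AGATAA or the same ending in G (AGATAG), and TGATAA or the same ending in G (TGATAG). A match was found for 4 of the 8 genes (Cpa3, Cma1, Mcpt1 and Fcer1a) and in 30.3% of the 33469 promoters of the same length. The promoter of Kit had 69.0% G and C and 23 CpG and that of Cpa3 41.7% and 1, against medians of 51.7% and 7 over all promoters. An E-box type that Mitf is known to bind, spelled CATGTG or in its palindromic form CACGTG, was found for 3 of the 8 (Cpa3, Tpsb2 and Fcer1a) and in 19.7% of all promoters. These matches describe the letters in the window and were not tested for a role in the levels. Tpsab1, Tpsb2 and Hdc, also near 0 in A12 and B14, had none of the GATA hexamers. The promoters of Cpa3, Cma1 and Tpsb2, whose levels were near 0 in A12 and B14, are shown beside that of Kit, whose levels were highest there. Capitals mark the GATA hexamers or their complement, and each sequence runs 5′ to 3′ on the strand of its gene.
Cpa3, GRCr8 chr2:104673188-104673487, minus strand: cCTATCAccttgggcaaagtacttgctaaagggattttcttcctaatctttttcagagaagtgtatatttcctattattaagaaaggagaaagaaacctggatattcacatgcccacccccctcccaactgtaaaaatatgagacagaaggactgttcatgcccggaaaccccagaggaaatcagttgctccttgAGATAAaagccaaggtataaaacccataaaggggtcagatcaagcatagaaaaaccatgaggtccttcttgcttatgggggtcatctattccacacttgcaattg
Cma1, GRCr8 chr15:33390084-33390383, minus strand: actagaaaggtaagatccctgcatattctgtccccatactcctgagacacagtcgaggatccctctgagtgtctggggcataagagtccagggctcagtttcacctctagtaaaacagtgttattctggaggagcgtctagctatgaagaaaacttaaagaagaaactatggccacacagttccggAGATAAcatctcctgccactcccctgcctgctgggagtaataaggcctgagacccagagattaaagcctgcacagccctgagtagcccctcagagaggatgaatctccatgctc
Tpsb2, GRCr8 chr10:14886060-14886359, plus strand: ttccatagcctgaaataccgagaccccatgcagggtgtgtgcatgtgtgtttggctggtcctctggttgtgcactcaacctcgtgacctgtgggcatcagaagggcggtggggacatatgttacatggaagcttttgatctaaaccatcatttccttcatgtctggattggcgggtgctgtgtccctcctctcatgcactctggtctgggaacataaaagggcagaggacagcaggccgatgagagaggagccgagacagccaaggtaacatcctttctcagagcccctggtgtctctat
Kit, GRCr8 chr14:32978763-32979062, minus strand: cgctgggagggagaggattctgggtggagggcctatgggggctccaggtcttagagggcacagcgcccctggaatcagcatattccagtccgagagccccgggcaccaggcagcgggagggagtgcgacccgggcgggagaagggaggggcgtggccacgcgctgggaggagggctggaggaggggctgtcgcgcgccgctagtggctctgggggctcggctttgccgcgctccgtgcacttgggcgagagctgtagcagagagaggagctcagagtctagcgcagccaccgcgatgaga
In Cpa3 the nearer hexamer starts 55 bases before the gene start and in Cma1 64 bases before it, and none is in the window of Tpsb2 or of Kit.

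Since FPKM are scaled to transcript length, the proteases can be compared with each other within a library. Mcpt2 made up 48.9% of the summed FPKM of the 6 proteases in A1, 53.1% in B5 and 39.0% in B9, but 14.1% in A6. Cma1 was the largest part in A6, at 34.9%, and stood at 22.1% in A1, 14.1% in B5 and 16.2% in B9. The tryptases together with Cma1 thus outweighed Mcpt2 in A6, whereas Mcpt2 was the most abundant protease in A1, B5 and B9. Cma1 was at 2.48 times Mcpt2 in A6 and at 0.265 to 0.452 times in the other 3. In A12 and B14 the 6 proteases summed to 1.93 and 0.940 FPKM, which is too low for shares to be read.

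**Figure D2:**
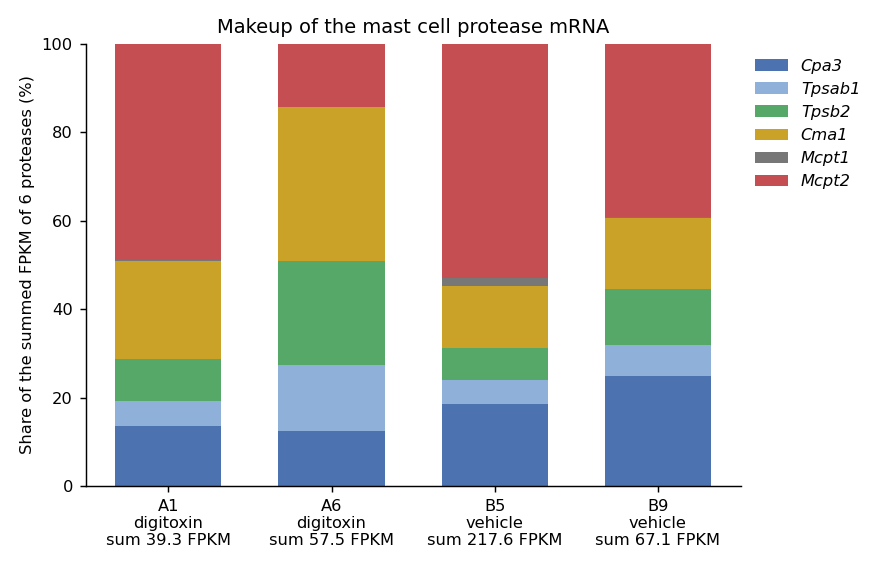
Share of each protease in the summed FPKM of the 6 protease mRNAs, in percent, for the 4 tumors in which the sum was above 2 FPKM. Each bar is 1 tumor and adds to all of its protease FPKM. Mcpt2 takes 39.0% to 53.1% in A1, B5 and B9 and 14.1% in A6, where Cma1 is the largest share.

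The ratio of Mcpt2 to Cpa3, mucosal chymase over carboxypeptidase, does not depend on the scaling of libraries. It was 3.62 in A1 and 1.12 in A6 with digitoxin and 2.86 in B5 and 1.57 in B9 with vehicle, and it could not be formed on a log scale in A12 and B14, where Mcpt2 was listed at 0. The 2 treated tumors lay on both sides of the controls. The mean log2 ratios were 1.01 and 1.09, and a two-sided exact permutation test of 2 tumors against 2 gave p = 1.0, in a design whose smallest p is 0.333.

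The comparison of digitoxin with vehicle was made to find transcripts that the drug changed in the tumor. No difference in the 9 tested mast cell genes passed the test, and the groups overlapped for each of them. In digitoxin-treated against vehicle tumors, Cpa3 was at 4.30 ± 3.52 against 19.1 ± 20.1 FPKM and Mcpt2 at 9.09 ± 9.63 against 47.3 ± 60.6 FPKM (mean ± SD, n = 3 in each). Cma1 was at 9.84 ± 9.72 against 13.9 ± 15.4 FPKM and Hdc at 4.33 ± 3.84 against 2.57 ± 2.08 FPKM. Kit was at 18.4 ± 20.7 against 32.1 ± 17.8 FPKM. The SD was close to or above the mean for most of these.

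With limma's moderated test on log2(FPKM + 1), 0 of the 9 genes passed an adjusted p under 0.05, and 0 of the 10749 rows did (0%). At an unadjusted p under 0.05 there were 0 of the 9 and 36 of all rows (0.335%). The groups were apart for 0 of the 9 genes and for 4.16% of all rows. Of the 9, 8 had a negative log2 fold change, as had 64.9% of all rows, with a median of -0.32 for the 9 and -0.16 for all rows. Without Kit, 7 of 8 were negative, with a median of -0.32. The lowest unadjusted p was that of Kit, 0.212 (limma).

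The intervals of these differences were wide. On the log2(FPKM + 1) scale, which understates the change of low genes, Kit had a log2 fold change of -1.41 with a 95% interval from -3.86 to 1.05, Mcpt2 of -1.37 from -6.07 to 3.34, and Cpa3 of -1.28 from -4.58 to 2.03. Fcer1a had -0.58 (from -2.99 to 1.83), Tpsab1 -0.32 (from -2.84 to 2.19), Tpsb2 -0.32 (from -3.42 to 2.79) and Ms4a2 -0.19 (from -1.89 to 1.51). Cma1 had -0.11 (from -3.57 to 3.35) and Hdc, the one gene above 0, had 0.43 (from -1.80 to 2.67). Every interval held 0 as well as changes of more than 2-fold in both directions, so these data do not bound the change of any of the 9 genes closely. Single libraries decided most directions. Without B5, 6 of the 8 negative values turned positive and the median became 0.30, without A12 the median was 0.25, and without B14 it was -1.45.

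**Figure D3:**
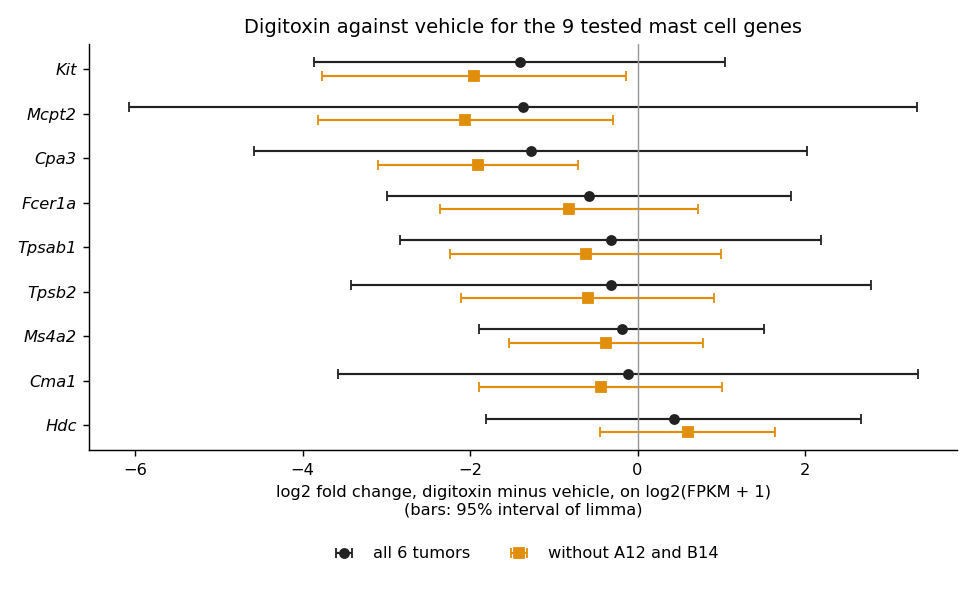
Log2 fold change (digitoxin minus vehicle, on log2(FPKM + 1)) of the 9 tested genes, with the 95% interval of limma as bars, for all 6 tumors in black (n = 3 in each group) and without A12 and B14 in orange (n = 2 in each group). Every black interval crosses 0, and the orange intervals of Kit, Mcpt2 and Cpa3 lie below 0 before adjustment.

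A fit without A12 and B14, the libraries nearly without lung transcripts, left 2 tumors in each group. Cpa3 then had a log2 fold change of -1.91 (95% interval from -3.10 to -0.71), Mcpt2 of -2.05 (from -3.82 to -0.29) and Kit of -1.95 (from -3.77 to -0.14). These 3 had an unadjusted p under 0.05, at 0.00760 for Cpa3, 0.0288 for Mcpt2 and 0.0386 for Kit, all of them lower with digitoxin, as did 11.1% of the 10765 rows tested (7.13% lower). The limma adjusted p of each was 0.390, and 0.0186% of all rows passed the adjusted threshold. Both treated tumors lay below both controls for the same 3 genes and above them for Hdc, that is for 4 of the 9 genes, while the groups were apart for 57.2% of all rows (39.5% lower and 17.7% higher). With the replicate number as a block, which pairs A12 with B14, 1 of the 9 genes had an unadjusted p under 0.05, Mcpt2 with 0.0356, as did 4.15% of all rows (2.83% lower), and 0 passed the adjusted threshold. The unadjusted p under the block was 0.0550 for Cpa3 and 0.0586 for Kit (limma). Within the same-numbered pairs, Cpa3 and Kit were lower with digitoxin in all 3 pairs, as were 22.4% of all rows, but Cpa3 differed by only 0.00954 FPKM between A12 and B14. Hdc was higher in all 3 pairs, as were 9.68% of all rows, but by only 0.0814 FPKM between A12 and B14. For Mcpt2, both A12 and B14 were listed at 0.

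Of 24 other granule serine proteases listed, 17 were in the table and 7 could be tested, with 3 higher, 4 lower and 0 past the threshold. Of these 7, 6 were lower in both A12 and B14 than in each of the other 4 tumors, beside 29.3% of all rows. The exception was Elane, the neutrophil elastase, at 1.61 FPKM in A12 and 1.47 in B14 against 1.16 in A6. Mcpt10, a chymase-like protease, was at 9.75 FPKM in A1, 20.8 in A6, 32.6 in B5 and 15.04 in B9, and listed at 0 in A12 and B14. Mcpt8l2, of the Mcpt8 family known from basophils, was at 14.1 FPKM in B5 and at 1.98 to 2.64 FPKM in A1, A6 and B9, and was also listed at 0 in A12 and B14. Mcpt8 itself was listed at 0 in all 6 tumors, on a locus that overlaps that of Mcpt9, and Prss34, a basophil protease in rodents, was at most 0.0701 FPKM. The granzymes Gzmk and Gzma, of T and NK cells, had the highest means of this list. Gzma was at 35.2 FPKM in A6, 23.4 in B9, 15.3 in A1 and 9.50 in B5, an order unlike that of Cpa3 or Mcpt2, and at 0.197 in A12 and 0.679 in B14. Gzmk was at 36.7 FPKM in A6, 33.3 in B9, 17.1 in A1 and 16.1 in B5.

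Of 17 genes that carry the IgE receptor signal, all 17 were tested, 6 had a higher and 11 a lower log2 fold change, and 0 passed. Fcer1g, the gamma chain shared with other Fc receptors and made by most myeloid cells, was at 1329, 1627 and 263 FPKM in the treated tumors A1, A6 and A12 and at 1223, 983 and 523 FPKM in the controls B5, B9 and B14. It remained well above 0 in A12 and B14, where the alpha chain was at 0.264 and 0.364 FPKM. Orai1, the pore of the store-operated calcium channel, ran from 52.7 to 303 FPKM, and Lyn, the kinase that starts the signal, from 22.9 to 104 FPKM.

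Among 16 genes of mast cell growth and lineage, 9 were tested and 0 passed, with 4 higher and 5 lower. Gata2, which endothelial cells also make, was at 27.6, 41.9 and 4.99 FPKM in the treated tumors A1, A6 and A12 and at 15.3, 26.9 and 4.56 FPKM in the controls B5, B9 and B14, so it was low in A12 and B14 but not highest in B5. Kitlg, the ligand of Kit, ran from 10.5 FPKM in A12 to 26.0 FPKM in B9. Il3ra, a subunit of the interleukin 3 receptor, was at 54.0 FPKM in A6 and from 13.3 to 24.4 FPKM in the other 5. Il33, an alarmin that activates mast cells, was at 801, 133 and 2256 FPKM in the treated tumors A1, A6 and A12 and at 1527, 1301 and 2404 FPKM in the controls B5, B9 and B14. Its order of tumors was close to that of Kit, highest in A12 and B14 and lowest in A6. Il1rl1, the receptor of Il33, was at 15.02 FPKM in A12 and 22.8 in B14 and at 0.363 to 2.45 FPKM in the other 4, opposite to the proteases.

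The enzymes of lipid mediators and storage showed 0 of 18 tested genes past the threshold, with 8 higher and 10 lower. The most abundant of them, Ctsd, Vamp8 and Cd63, are lysosome and granule genes of many cells and ran from 622 to 2097, from 383 to 2516 and from 788 to 1208 FPKM. The groups were apart for 1 gene of this list, Ptgs1, a cyclooxygenase, against 4.16% of all rows. It was at 44.3 FPKM in A1, 29.9 in A6 and 38.4 in A12, all below the controls, which had 49.5, 59.7 and 45.8 FPKM in B5, B9 and B14, and its log2 fold change of -0.46 did not pass. Hpgds, the prostaglandin D synthase of mast cells, was at 0.820 to 2.49 FPKM in A1, A6, B5 and B9 and listed at 0 in A12 and B14. Hnmt, which inactivates histamine, was listed at 0 in all 6.

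A list of 19 receptors held those for histamine, serotonin and other mast cell mediators and those for complement fragments and peptides that act on mast cells. Of these, 18 were in the table and 9 were tested, with 2 higher, 7 lower and 0 past the threshold. In both A12 and B14, 4 of the 9 were higher and 3 lower than in each of the other 4 tumors, beside 30.1% and 29.3% of all rows. F2rl1, the receptor that tryptase can activate by cutting it, was at 56.6, 5.14 and 175 FPKM in the treated tumors A1, A6 and A12 and at 103, 93.3 and 177 FPKM in the controls B5, B9 and B14, again close to the order of Kit. Htr1b, a serotonin receptor, was at 14.1 FPKM in A12 and 15.7 in B14 and at most 2.94 FPKM elsewhere. The histamine receptors Hrh1, Hrh2, Hrh3 and Hrh4 were each at most 0.536 FPKM in any tumor. C5ar1, the receptor of complement C5a, was lowest in A12 and B14, at 23.1 and 38.5 FPKM, and ran from 62.2 to 75.8 FPKM in the other 4.

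**Figure D4:**
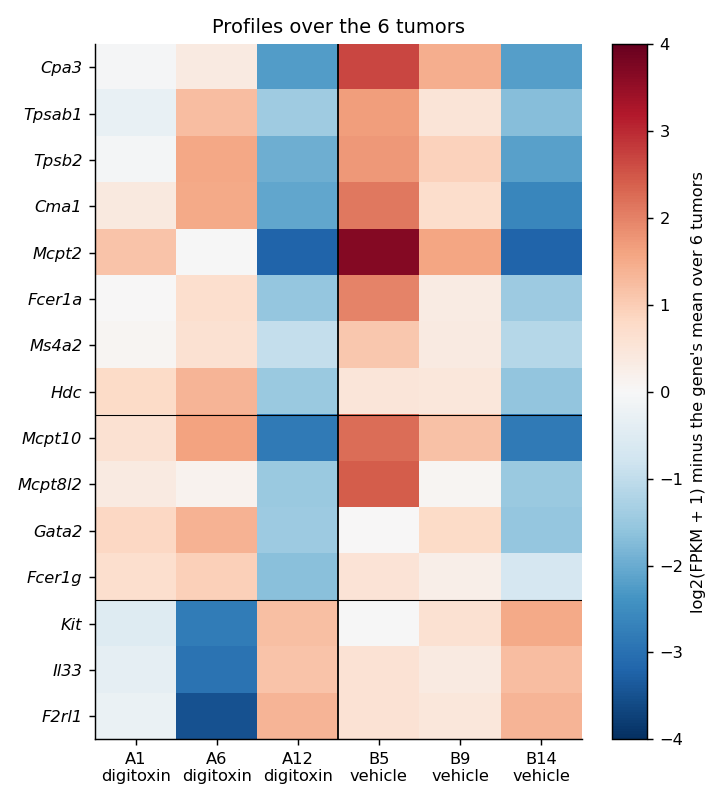
log2(FPKM + 1) of 15 genes in each tumor, centred on the mean of the gene over the 6 tumors (red above, blue below), with the digitoxin group left and the vehicle group right of the black line. The upper rows are the 8 tested mast cell genes other than Kit, the middle rows are related genes, and Kit, Il33 and F2rl1 at the bottom are high in A12 and B14 and low in A6.

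Of the tested rows outside the 10 genes, those whose profile over the 6 tumors lay closest to that of Cpa3, by the root mean square difference of centred log2(FPKM + 1), were Np4 (0.441), Aldh3a1 (0.567), RatNP-3b (0.596), Mcpt10 (0.711) and Defa (0.719). Np4, RatNP-3b and Defa are neutrophil defensins, and Aldh3a1 is an aldehyde dehydrogenase. Among the tested mast cell genes, Cma1 (0.664), Tpsb2 (0.668) and Fcer1a (0.687) lay nearest to Cpa3, nearer than Mcpt10 and Defa, and Kit (2.70) lay farthest. Np4 was at 2.42 FPKM in A1, 5.81 in A6, 18.5 in B5 and 4.95 in B9 and listed at 0 in A12 and B14. By the same measure, chosen for Kit after its values were seen, the rows closest to Kit were Actr2 (0.0880), Kif5b (0.0882), Ide (0.0894), Sertad2 (0.0895) and Pds5a (0.1). Actr2 is a subunit of the actin-branching Arp2/3 complex and Kif5b a kinesin, genes of most cells. These closeness values describe 6 libraries that share the split between A12 and B14 and the rest.

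Markers of several other cell types moved with the mast cell genes. Of 15 lung and airway genes, 14 were lower in both A12 and B14 than in each of the other 4, as were 7 of 9 T and NK cell genes, 5 of 6 endothelial genes and 6 of 9 tested neutrophil genes, beside 29.3% of all rows. The summed FPKM of the 6 endothelial genes was 58.5 in A12 and 66.4 in B14 and 184 to 556 in the other 4, and that of the 9 T and NK cell genes was 28.6 and 53.2 against 102 to 174. In B5, the library richest in mast cell proteases, the 15 lung genes summed to 49186 FPKM, the lowest sum of A1, A6, B5 and B9. Its largest entries were Scgb1a1 and Sftpc, at 20630 and 19188 FPKM. By single genes, B5 was not the lowest of these 4 for Sftpd, Lamp3, Rtkn2, Hopx and Scgb3a2, and was for the others. Of the 10 macrophage genes, 4 were lower in both (Cd68, Csf1r, Mrc1 and Marco) and 3 higher (Cd163, C1qa and C1qb), and of the basophil and eosinophil genes only Siglec5 was above 1 FPKM in any tumor. Of the 9 smooth muscle and fibroblast genes, 6 were higher in both A12 and B14 than in each of the other 4, beside 30.1% of all rows. The collagens Col1a1 and Col3a1 were among the 6, while Myh11, Des and Pdgfra were not higher in both A12 and B14. The part of these cells in the mast cell values was not tested.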

How the data were processed

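The authors made TruSeq libraries from total RNA and read them from 1 end on a Genome Analyzer IIx. The submitters' processing notes and the study's methods name CASAVA, FastQC, Bowtie2, TopHat2, Cufflinks and Cuffdiff. The authors deposited FPKM, 1 column per tumor, and no scaling between tumors is stated. The notes name hg19, a human build, although the loci are on rat chromosomes, so the build is not given in the sources used here. Low FPKM showed no step shared by most rows (at most 2.43% of low rows had 1 common ratio to B9), so reads could not be recovered and depth is unknown. All 6 value columns were matched to samples by the rat named in the labels.

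Rows whose mean reached 1 FPKM (10749) were transformed to log2(FPKM + 1) and fitted in R 4.3.3 with limma 3.58.1, using lmFit and trended eBayes. All p are two-sided, adjusted over all rows by the method of Benjamini and Hochberg. Cuffdiff needs reads and was not repeated. A symbol on several rows was read from the row of highest mean, and the lists' Adgre1 and Aoc1 were found under the older symbols Emr1 and Abp1. The fit was tested on simulated data. Values and plots were made with Python 3.11.15, numpy 2.4.6, pandas 2.3.3, scipy 1.17.1 and matplotlib 3.10.9. The members, lists and tests were chosen with earlier results of these data known. Named beyond the members were, per mast cell list, genes with an unadjusted p under 0.05 and the 3 of highest mean, up to 3 markers of each other cell type and the 5 rows most like Cpa3. Other genes were named after their values were seen.

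Deviations from the group means correlated at 0.426, 0.606 and 0.869 for replicates 1, 2 and 3, and a block was fitted. A shared day or litter is not stated. A1 with B9 (0.644) and A6 with B5 (0.612) moved together at least as closely as A1 with B5 and A6 with B9. Only A12 with B14 thus set the same-numbered libraries apart from the others. Nothing in the labels says more of the replicates than 1 rat each. Alternatives tried were the replicate block, leaving out each tumor or both A12 and B14, ratios of group means, untrended eBayes, scaling by median-of-ratios, all rows unfiltered, and adding 0.1 in place of 1.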

Additional observations from a re-analysis of the deposited data

How the results depend on the processing

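No tested mast cell gene passed the adjusted threshold under any alternative run. The 69 tested genes of all the mast cell lists together were counted with all 6 tumors only, and 0 of them passed. Cpa3 and Kit kept a log2 fold change below 0 under every alternative, and the other 7 tested genes did not. Depth is unknown, so how much of the spread at low FPKM is counting error cannot be said.

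The number of tested genes with an unadjusted p under 0.05 was 0 with all tumors (0.335% of all rows), 1 with the replicate block (4.15%) and 3 without A12 and B14 (11.1%). With each tumor left out it was 0 to 1, namely Kit without A12 (19.7% of all rows) and Cpa3 without B14 (0.503%). The number whose groups were apart became 4 without A12 and B14 (57.2% of all rows). With each tumor left out it was 0 to 2, namely Hdc and Kit without A12 (50.8%) and Cpa3 and Mcpt2 without B14 (10.4%), and fits with fewer tumors leave fewer to overlap. Of the 9, the number below 0 ran from 2 (without B5) to 9, and the median from -1.45 (without B14) to 0.30 (without B5). With each tumor left out in turn, Cma1 ran from -1.45 to 0.91, Fcer1a from -1.45 to 0.27, Hdc from -0.25 to 1.28, Mcpt2 from -3.31 to 0.13, Ms4a2 from -0.81 to 0.30, Tpsab1 from -1.25 to 0.43 and Tpsb2 from -1.49 to 0.58. Cpa3 ran from -2.70 to -0.26 and Kit from -2.36 to -0.36. A pseudocount of 0.1 turned Cma1 to 0.19 and Ms4a2 to 0.0765, and median-of-ratios scaling, which shifted the median of all rows by 0.18, turned Cma1 to 0.0656. The log2 ratio of Mcpt2 to Cpa3 differed by -0.0758 between the groups and lay between -0.92 and 0.77 when each of the 4 tumors was dropped, at 0.77 without A6 and 0.36 without B5. The cause of these changes was not tested. In all, 99 of 117 values of single genes kept their direction and 18 changed it.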

Other observations

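Ratios between the mast cell genes within a library were also formed, for the 21 pairs among the 7 genes above 0 in all tumors. With A12 and B14 included, the groups did not overlap for 3 pairs, which share Cpa3 and were picked after the values were seen. The ratio of Cpa3 to Cma1 came to 0.611 and 0.359 in A1 and A6 against 1.32 and 1.53 in B5 and B9. The ratio of Cpa3 to Tpsb2 came to 1.42 and 0.533 against 2.60 and 1.96, and that of Cpa3 to Hdc to 1.08 and 0.917 against 10.6 and 4.48, in the same tumors. In A12 and B14 the same ratios were 0.517 and 2.0 (Cma1), 1.34 and 4.19 (Tpsb2), and 1.60 and 2.47 (Hdc), but they rest on FPKM under 1 and are not read. That leaves 2 tumors against 2, where 57.2% of all rows were apart by FPKM. No such share was formed for ratios. The ratios of Cpa3 to Fcer1a, Tpsab1 and Kit overlapped between the groups over all 6 tumors. Without A12 and B14 only that to Kit did. The ratio to Fcer1a was 1.92 and 1.45 in A1 and A6 against 2.93 and 4.46 in B5 and B9. That to Tpsab1 was 2.33 and 0.843 against 3.41 and 3.48. Relative to Cpa3, 1.1% of 10276 tested rows above 0 in all tumors were higher in each digitoxin-labelled tumor than in any control. That share also uses the ratios in A12 and B14, so it gives no measure of how rare the 3 pairs are. With 3 tumors in each group the smallest p of a two-sided exact permutation test is 0.10. The labels of A1 and B9 were not tested, and were they exchanged, the groups would overlap for all 3 pairs.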
